A study of Mus musculus with 6 samples.

Results

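The genes of the YAP transcription module were examined in whole ovaries: the co-activators Yap1 and Wwtr1 (encoding TAZ), the DNA-binding factors Tead1, Tead2, Tead3 and Tead4, and the target genes Ctgf, Cyr61, Amotl2 and Ankrd1. The 10 genes were taken by symbol from the 44788 genes of the deposited count table, with earlier results of these data known. Of these 10 genes, 9 passed the filter on low counts, which kept 19423 genes of the whole table, and Ankrd1 did not. The ovaries came from 8-week-old C57BL/6 J mice, 3 wild-type (Bnc1+/+, replicates 1, 4 and 7) and 3 homozygous for a frameshift deletion in Bnc1 that creates a premature stop codon (Bnc1tr/tr, replicates 1, 2 and 3). Bnc1 encodes the zinc finger protein basonuclin 1. The mutation was in the germline, so every cell type of the Bnc1tr/tr ovary carried it. The question addressed was whether transcripts of YAP, its DNA-binding partners and its classical targets differed between the genotypes, since the study linked the Hippo pathway to the loss of follicles in these mice.

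In the Hippo pathway the kinases MST1/2 and LATS1/2, assisted by merlin, SAV1 and MOB1, phosphorylate YAP and TAZ and keep them in the cytoplasm. Unphosphorylated YAP and TAZ enter the nucleus, bind TEAD factors and switch on genes such as Ctgf and Cyr61. Because the switch is phosphorylation and localisation of a protein, transcript levels of Yap1 and the Teads describe the supply of the components, and transcripts of the targets are commonly read as the output. In the ovary the pathway is known for restraining follicle growth, and disruption of the tissue is known to raise Ctgf and Cyr61-type targets.

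The libraries held 25247770 to 34406296 counts each. Bnc1 itself was listed at 13.9, 13.4 and 13.1 CPM (each count divided by its library total after TMM scaling) in Bnc1+/+ ovaries and at 18.7, 13.7 and 11.5 CPM in Bnc1tr/tr ovaries, and a count over the whole gene does not separate the frameshift transcript from the wild-type one. Across all 19423 genes tested with edgeR's quasi-likelihood test, 1372 (7.06%) passed an adjusted p of 0.05, of which 813 (4.19%) were lower and 559 higher in Bnc1tr/tr ovaries. The groups of 3 did not overlap in 30.8% of all genes tested, and 52.6% of them had a positive log2 fold change. Marker genes of oocytes, granulosa, theca, corpus luteum, stroma and endothelium were all detected, as an ovary should have them. The summed corpus luteum markers were 21164, 25460 and 24714 CPM in Bnc1+/+ and 6768, 12087 and 10513 CPM in Bnc1tr/tr ovaries. Of these 10 genes, 10 had a negative fold change and 7 were called lower. The summed endothelial markers were 838 to 1071 and 575 to 677 CPM, with 9 of 10 negative, 5 called lower and 1 called higher. Granulosa markers summed to 3399 to 4426 CPM in Bnc1+/+ and 3880 to 6002 CPM in Bnc1tr/tr ovaries (5 of 10 positive, 2 called higher). Oocyte markers summed to 552 to 720 and 688 to 1043 CPM (9 of 12 positive, 3 called higher). In whole ovaries, fewer cells of a type and less RNA per cell cannot be told apart.

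None of the 9 tested YAP module genes passed the test between the genotypes. Their adjusted p values by edgeR ranged from 0.400 to 0.983, and 7.06% of all genes passed that threshold of 0.05. An unadjusted p under 0.05 was reached by 0 of 9, against 24.2% of all genes. For 0 of the 9 did the 3 Bnc1+/+ ovaries stand apart from the 3 Bnc1tr/tr ovaries, against 30.8% of all genes. The median log2 fold change of the 9 was 0.024 (0.018 over all genes), and the median of the absolute values was 0.13 (0.21 over all genes). The fold change was positive for 6 of the 9, against 52.6% of all genes. The sign of the median of the 9 rested on single ovaries: it was negative without Bnc1+/+ replicate 1 (-0.05) or Bnc1tr/tr replicate 1 (-0.09). DESeq2, limma-voom and edgeR's robust fit also called 0 of the 9. A gene that misses the threshold is not shown to be equal in both genotypes, so the intervals given below state how large a difference each gene could still carry.

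**Figure D1:**
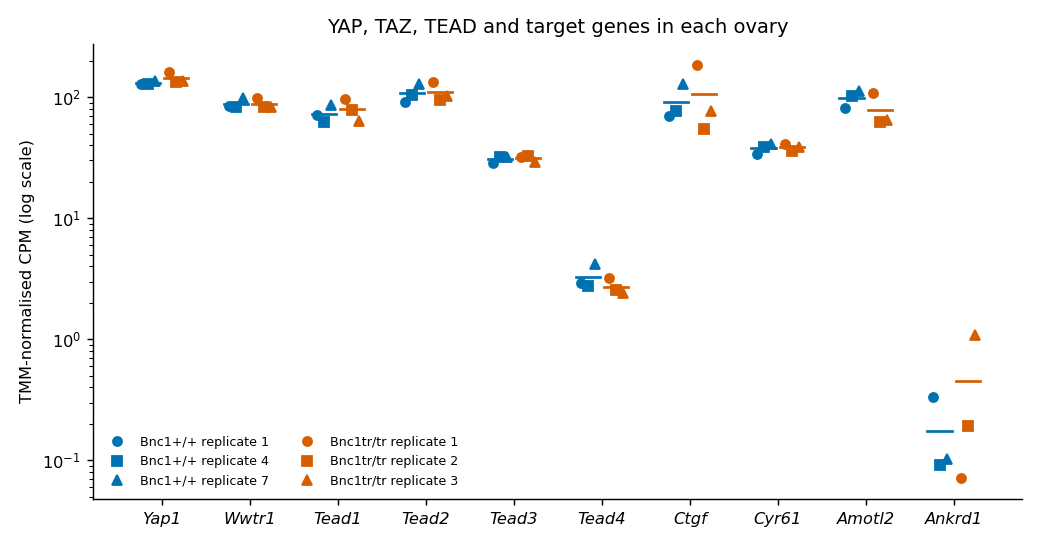
Level of each of the 10 genes in each of the 6 ovaries, in TMM-normalised CPM on a log axis; each point is 1 ovary, coloured by genotype. The 2 genotypes overlap for every gene, Ctgf spans 54.9 to 186 CPM, and Ankrd1 lies under 1.1 CPM in all ovaries.

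Yap1, on chromosome 9 (GRCm38, chr9:7931999-8004596, minus strand), encodes the main co-activator restrained by Hippo signalling. It measured 129, 129 and 135 CPM in Bnc1+/+ replicates 1, 4 and 7, and 163, 134 and 135 CPM in Bnc1tr/tr replicates 1, 2 and 3. The genotypes overlapped, and Bnc1tr/tr replicate 1 stood above the other 5 ovaries. The means were 131 ± 3.71 CPM (SD, n = 3) and 144 ± 16.1 CPM (SD, n = 3). This is a difference of 0.13 on the log2 scale with an SE of 0.097 and an edgeR adjusted p of 0.441. Its 95% interval ran from 0.94-fold to 1.28-fold. Without Bnc1tr/tr replicate 1 the log2 fold change was 0.04. An opposite-strand transcript, Gm20416, shares 116 bases (1.25%) with the Yap1 exons.

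Wwtr1 (chr3:57455649-57575910, minus strand) encodes TAZ, the paralogue of YAP. Its levels were 84.3, 82.8 and 98.3 CPM in Bnc1+/+ and 98.3, 83.1 and 83.1 CPM in Bnc1tr/tr ovaries, so each genotype held 1 ovary near 98 and a pair near 83. Wwtr1 had the smallest difference of the 9 genes, with means of 88.5 ± 8.56 and 88.2 ± 8.75 CPM (SD, n = 3 each). The interval of its fold change ran from 0.84 to 1.18 (edgeR adjusted p = 0.983). Scaling by library size alone gave a log2 fold change of 0.09 in place of -0.01, a shift that also moved the median of all genes to 0.12.

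Within an ovary the balance between the 2 co-activators does not depend on the scaling between libraries. Per kilobase of merged exons, Wwtr1 was 1.27, 1.24 and 1.41 times the level of Yap1 in Bnc1+/+ and 1.17, 1.20 and 1.19 times in Bnc1tr/tr ovaries. Each Bnc1tr/tr ratio was lower than each Bnc1+/+ ratio, by 0.13 on the log2 scale between the means. The gene length used sets the size of the ratio but not this difference. By the longest annotated transcript, Yap1 lay above Wwtr1 (means over all ovaries of 26.0 and 18.8 CPM per kilobase). The exact two-sided permutation p was 0.1, the smallest that 3 ovaries against 3 allow, and 0.25 after adjustment over the 5 within-ovary measures tested (this ratio and the 4 TEAD shares). With 1 ovary left out at a time, the difference lay between -0.17 and -0.08. Its sign could not change in these fits, because the ratios of the genotypes did not overlap.

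The TEAD factors bind DNA for YAP and TAZ, which have no DNA-binding domain of their own. Tead1 (chr7:112679318-112906807, plus strand) measured 70.8, 61.9 and 85.5 CPM in Bnc1+/+ and 97.3, 78.7 and 63.7 CPM in Bnc1tr/tr ovaries. Each genotype thus held a low, a middle and a high ovary, and the log2 fold change of 0.14 (SE 0.17, edgeR adjusted p = 0.678) was smaller than its error. Tead2 (chr7:45215753-45233644, plus strand), a TEAD gene prominent in early embryos, measured 91.1, 105 and 128 CPM against 134, 95 and 102 CPM. Its interval ran from 0.78-fold to 1.33-fold (edgeR adjusted p = 0.940), with no separation between the genotypes. Only 13 bases of Tead2 exon overlap those of Cd37 on the other strand, and Cd37 had at most 115 counts in any ovary.

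Tead3 (chr17:28331671-28350817, minus strand), known from placenta and heart, had the tightest levels of the family. It measured 28.8, 31.9 and 31.9 CPM in Bnc1+/+ and 31.9, 32.7 and 29.1 CPM in Bnc1tr/tr ovaries. The means of 30.9 ± 1.77 and 31.3 ± 1.87 CPM (SD, n = 3 each) gave an interval from 0.88-fold to 1.17-fold, with an edgeR adjusted p of 0.925. Tead4 (chr6:128224288-128300823, minus strand), the TEAD of trophectoderm and regenerating muscle, was scarce: 2.90, 2.75 and 4.17 CPM in Bnc1+/+ and 3.20, 2.54 and 2.40 CPM in Bnc1tr/tr ovaries, from 66 to 121 counts. Bnc1+/+ replicate 7 was the highest ovary and the genotypes overlapped. Its log2 fold change was -0.27 (SE 0.25, edgeR adjusted p = 0.549), and the interval from 0.56-fold to 1.23-fold was among the wider ones.

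Tead2 made up most of the TEAD transcripts. Its share of the summed TEAD level per kilobase was 64.8, 68.4 and 68.7% in wild-type ovaries, against 68.5, 63.6 and 68.7% in the mutant ones. Tead1 held 14.3 to 17.8% and 15.2 to 18.6%, and Tead3 held 12.2 to 14.9% and 11.7 to 15.6%. These 3 shares overlapped between the genotypes, with exact two-sided permutation p values of 0.6 to 1.0. For Tead4 the share was 2.75, 2.39 and 2.97% in wild-type ovaries, against 2.19, 2.26 and 2.15% in the mutant ones, without overlap (exact permutation p = 0.1, adjusted p = 0.25). The absolute level of Tead4 overlapped between the genotypes, and its share rests on the lowest counts of the family.

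**Figure D2:**
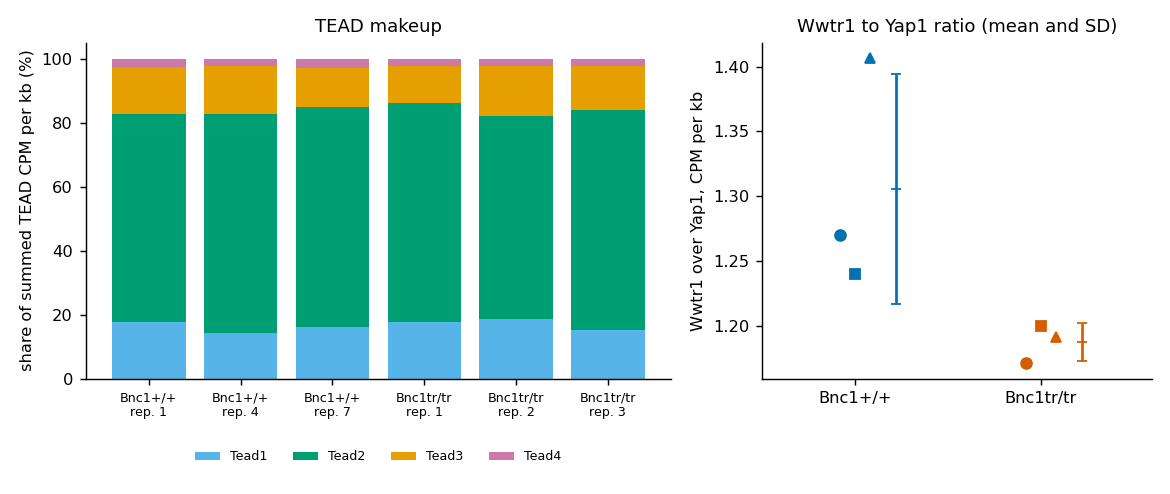
Left, share of each TEAD gene in the summed TEAD level (CPM per kilobase of merged exons, in percent) for each ovary; right, ratio of Wwtr1 to Yap1 per kilobase, with each point 1 ovary and the bars showing mean and SD (n = 3). Tead2 holds 63.6 to 68.7% everywhere. By merged exon length the ratio is 1.24 to 1.41 in Bnc1+/+ and 1.17 to 1.20 in Bnc1tr/tr ovaries.

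Per kilobase of merged exons and over all 6 ovaries, Ctgf was the highest of the 10 genes (34.4 CPM per kilobase), followed by Tead2 (22.8), Cyr61 (19.0), Wwtr1 (18.5), Yap1 (14.9) and Amotl2 (14.1). Tead1 (5.62) and Tead3 (4.63) were lower, Tead4 stood at 0.832 and Ankrd1 at 0.109 CPM per kilobase. The ranges of neighbours in this order did not overlap at 3 steps: Amotl2 lay 2.50-fold above Tead1, Tead3 5.56-fold above Tead4, and Tead4 7.64-fold above Ankrd1. The ranges of the other neighbours overlapped, although Tead2 lay above Cyr61 and Wwtr1 above Yap1 within each of the 6 ovaries. With the length of the longest annotated transcript instead, Ctgf and Tead2 still led, but Yap1 and Amotl2 moved above both Cyr61 and Wwtr1, and Tead3 moved above Tead1. The order among these 6 genes therefore depends on the length used.

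The 4 target genes are among those whose transcription YAP and TEAD are known to drive, and TEAD factors recognise the letters GGAATG, which on the opposite strand of the same site are written as CATTCC. In the 250 bases before each RefSeq transcription start (GRCm38.p6), 12.6% of 32851 promoters held these letters on either strand, and the windows of 6 of the 7 module genes present in the promoter table did (Yap1, Wwtr1, Tead3, Cyr61, Amotl2 and Ankrd1). Tead2 had no match, and Ctgf, Tead1 and Tead4 were not searched. A match describes the letters only, and Wwtr1 and Tead3 had more than 1 promoter window, so the shares are not on an equal footing. The matches of the targets are shown in 30 bases each, read 5′ to 3′ on the gene's strand, because they are the known recognition letters beside genes measured here as output; capitals mark the TEAD letters.
Cyr61, chr3:145650071-145650100: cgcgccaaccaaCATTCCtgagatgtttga
Amotl2, chr9:102717727-102717756: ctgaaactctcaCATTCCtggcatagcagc
Ankrd1, chr19:36120037-36120066: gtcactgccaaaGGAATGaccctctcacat
Ankrd1, chr19:36119950-36119979: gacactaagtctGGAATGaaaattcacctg
The Cyr61 match began 103 bases before the start, the Amotl2 match 65 bases before, and the Ankrd1 matches 210 and 123 bases before. The Cyr61 window lay between annotated genes, whereas the Amotl2 and Ankrd1 windows fell in exons of other transcripts of the same genes in GENCODE M21.

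Ctgf (also named Ccn2, chr10:24595442-24598683, plus strand) encodes connective tissue growth factor, a secreted matricellular protein and the most used readout of YAP activity. It measured 70.1, 76.3 and 128 CPM in Bnc1+/+ replicates 1, 4 and 7, and 186, 54.9 and 76.2 CPM in Bnc1tr/tr replicates 1, 2 and 3. Both the highest and the lowest ovary were Bnc1tr/tr. The means were 91.4 ± 31.7 and 106 ± 70.2 CPM (SD, n = 3 each), and the log2 fold change of 0.21 (SE 0.44, edgeR adjusted p = 0.811) had an interval from 0.57-fold to 2.34-fold. Ctgf thus had the largest SE of the 9 tested genes, with a wide spread between ovaries at 1427 to 5220 counts per ovary.

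The direction for Ctgf rested on 1 ovary: without Bnc1tr/tr replicate 1 its log2 fold change was -0.48, and it was positive in every other of the 14 alternatives. Bnc1tr/tr replicate 1 also had the lowest corpus luteum marker sum (6768 CPM) and the highest adipose marker sum, 515 CPM against 20.5 to 131 CPM in Bnc1+/+ and 345 and 46.0 CPM in the other Bnc1tr/tr ovaries. Of the tested adipose markers 9 of 9 were positive, against 52.6% of all genes, and 1 was called, against 7.06%. The part of these marker sums in the Ctgf value was not tested. A transcript annotated on the other strand, Gm15270, covers 23.2% of the Ctgf exon bases and was not a gene of the count table, and whether the counting used strand is not given in the sources used here.

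Cyr61 (also named Ccn1, chr3:145646976-145649981, minus strand) encodes a matricellular protein of the same CCN family and ranged less between ovaries than Ctgf. Its levels were 33.8, 39.0 and 41.2 CPM in Bnc1+/+ and 40.9, 36.0 and 38.9 CPM in Bnc1tr/tr ovaries. The Bnc1tr/tr values fell inside the Bnc1+/+ range in all 3 ovaries. With means of 38.0 ± 3.83 and 38.6 ± 2.47 CPM (SD, n = 3 each), the interval ran from 0.86-fold to 1.20-fold (edgeR adjusted p = 0.914).

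Amotl2 (chr9:102716672-102733418, plus strand) encodes an angiomotin-like scaffold that binds YAP at cell junctions and is itself induced by YAP. It had the largest difference of the 9 tested genes, with 82.1, 102 and 112 CPM in Bnc1+/+ and 108, 62.1 and 65.3 CPM in Bnc1tr/tr ovaries. Bnc1tr/tr replicates 2 and 3 lay below every Bnc1+/+ ovary, and Bnc1tr/tr replicate 1 lay within their range. The log2 fold change was -0.33 (SE 0.22, edgeR adjusted p = 0.400), with an interval from 0.56-fold to 1.13-fold. Leaving out Bnc1tr/tr replicate 1 took it to -0.63 with an edgeR adjusted p of 0.0473, the only alternative in which any of the 9 genes passed the test. The other 13 alternatives gave adjusted p values of 0.317 or more. The endothelial marker sum was lower in all 3 Bnc1tr/tr ovaries, and lowest in Bnc1tr/tr replicate 1 (575 CPM), the Bnc1tr/tr ovary with the highest Amotl2. Its part in the Amotl2 value was not tested.

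Ankrd1 (chr19:36111961-36120099, minus strand) encodes a nuclear ankyrin repeat protein best known from heart and injured muscle. It was at or near the floor, with 9, 3 and 3 counts in Bnc1+/+ and 2, 5 and 31 counts in Bnc1tr/tr ovaries. In 3 of the 6 ovaries it did not exceed 3 counts, the number that counting error alone can hide, and only Bnc1tr/tr replicate 3 had more than 9. No fold change was tested in the filtered data, and without the filter its edgeR adjusted p was 0.483. The ovaries with the highest counts, Bnc1tr/tr replicate 3 and Bnc1+/+ replicate 1, also had the highest sums of oviduct epithelial markers (541 and 148 CPM, against 12.8 to 31.4 CPM in the other 4; 10 of 10 markers detected, 0 of 8 tested called). Striated muscle markers summed to 8.57 to 11.8 CPM in all 6 ovaries. The part of oviduct tissue in the Ankrd1 counts was not tested.

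**Figure D3:**
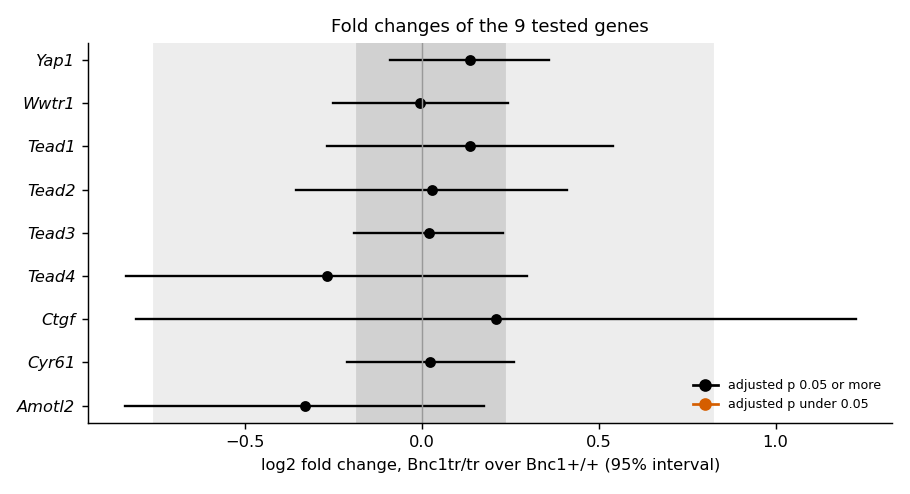
Log2 fold change of the 9 tested genes, Bnc1tr/tr over Bnc1+/+, with 95% intervals from edgeR (3 ovaries per genotype). The dark band marks the 25th to 75th and the light band the 5th to 95th percentile of all 19423 genes tested; every interval crosses 0, and Ctgf has the widest.

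Levels of these genes tended to be high in the same ovaries. Bnc1tr/tr replicate 1 and Bnc1+/+ replicate 7, 1 of each genotype, were the 2 highest ovaries for 8 of the 9 tested genes, Tead3 being the exception, and all 36 pairs among the 9 had a positive r. Neither count was set against all genes, so neither is shown to be particular to this module. Bnc1tr/tr replicate 1 was the highest ovary for Yap1, Tead1, Tead2 and Ctgf, and Bnc1+/+ replicate 7 for Wwtr1, Tead4, Cyr61 and Amotl2. Over the 6 ovaries Ctgf correlated with Tead2 (Pearson r = 0.945), Tead2 with Wwtr1 (r = 0.926) and Ctgf with Wwtr1 (r = 0.923), whereas Tead3 and Ctgf had the lowest r of the 9 genes (0.231). Yap1 and its target Cyr61 had an r of 0.552. These values describe 6 libraries that share tissue composition and depth with every other gene. Among 13079 genes with a mean of at least 5 CPM, the levels most like Yap1 were those of Hpgd (r = 0.998), Arhgap31 (0.995) and Dock9 (0.995), and 579 genes had an r over 0.9. The levels most like Cyr61 were those of Ccng2 (0.989), Senp3 (0.980) and Dnajc17 (0.979), with 56 genes over 0.9.

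**Figure D4:**
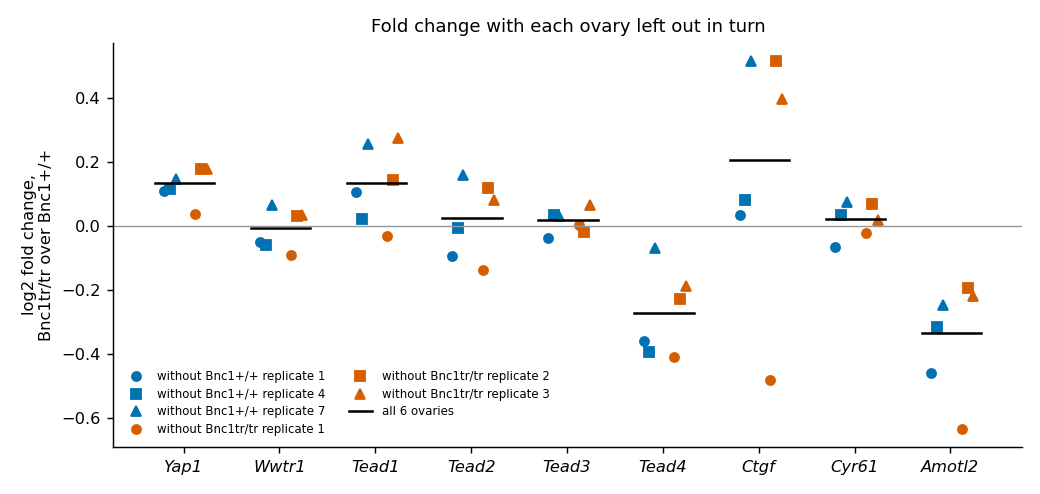
Log2 fold change of each tested gene with all 6 ovaries (bars) and with each ovary left out in turn (points, coloured by the genotype of the ovary left out). Without Bnc1tr/tr replicate 1, Ctgf moves to -0.48 and Amotl2 to -0.63, while Yap1 stays above 0 and Tead4 and Amotl2 stay below 0 throughout.

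Of 18 other genes known to be driven by YAP or TAZ, 17 were tested. Of the 17, 4 were called lower in Bnc1tr/tr ovaries, against 4.19% of all genes, and none was called higher. This list and the pathway lists below were written with earlier results of these data known, so their counts are not independent support. The fold change was positive for 7 of 17, against 52.6% of all genes. The genotypes did not overlap for 7 of 17, in both directions, against 30.8% of all genes. The median log2 fold change of the 17 was -0.25 (0.018 over all genes). The median was -0.06 without Bnc1+/+ replicate 7 and -0.14 without Bnc1tr/tr replicate 3, and -0.35 at the other end without Bnc1+/+ replicate 4. Foxf2, the untested gene, had at most 2 counts in any ovary. Igfbp3, encoding a carrier of insulin-like growth factors, measured 51.7, 43.2 and 42.4 CPM in Bnc1+/+ and 26.8, 21.4 and 21.5 CPM in Bnc1tr/tr ovaries. Every Bnc1tr/tr ovary was lower than every Bnc1+/+ ovary, with a log2 fold change of -0.98 (SE 0.13, edgeR adjusted p = 0.0059).

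Nt5e, encoding the adenosine-producing surface enzyme CD73, measured 6.51, 6.59 and 6.76 CPM against 1.96, 3.19 and 2.86 CPM (log2 fold change -1.31, SE 0.22, edgeR adjusted p = 0.014). Asap1, a GTPase-activating protein for Arf, fell from 129 ± 22.4 to 82.1 ± 7.46 CPM (SD, n = 3 each; edgeR adjusted p = 0.032). Dock5, an exchange factor for Rac, fell from 47.3 ± 4.57 to 32.9 ± 3.26 CPM (SD, n = 3 each; edgeR adjusted p = 0.034). The genotypes did not overlap for any of these 3 genes. The count of 4 depended on the ovaries used: it was 1 without Bnc1+/+ replicate 4 or replicate 7, 2 without Bnc1tr/tr replicate 2 or replicate 3, and 0 without the 2 ovaries of highest oviduct marker sums, where Igfbp3 had an adjusted p of 0.064. Igfbp3 passed with each single ovary left out. Corpus luteum and endothelial markers were lower in the same ovaries (sums given above), and their part in these 4 genes was not tested.

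**Figure D5:**
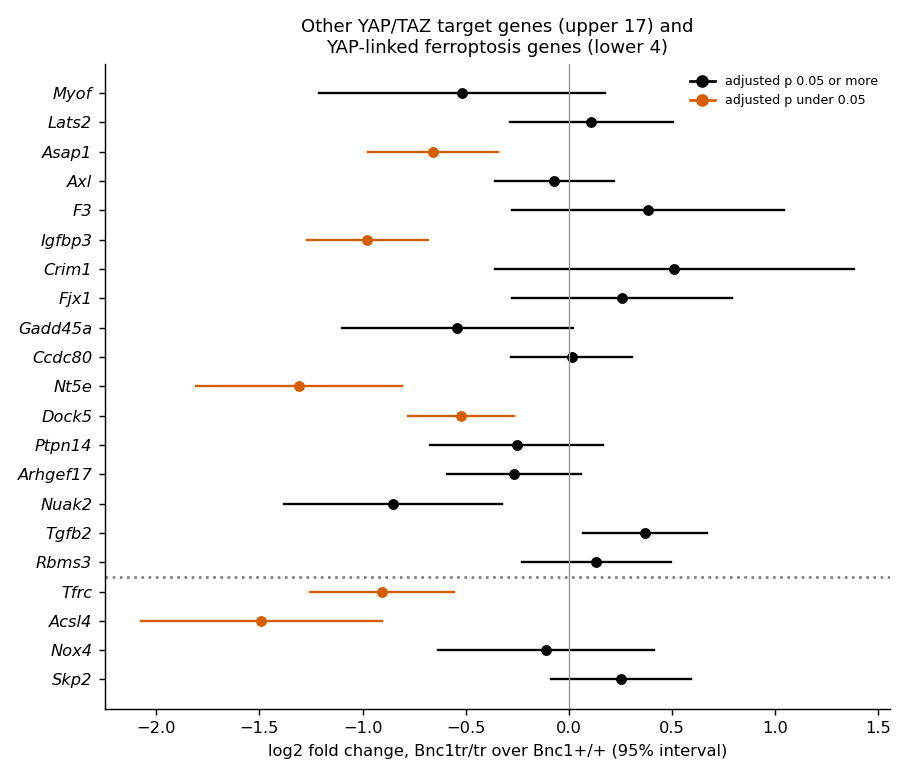
Log2 fold change, Bnc1tr/tr over Bnc1+/+, with 95% intervals from edgeR (3 ovaries per genotype) for 17 other YAP/TAZ target genes and, under the dotted line, 4 ferroptosis genes linked to YAP. The genes called (orange) all lie to the left of 0, from -0.52 for Dock5 to -1.49 for Acsl4.

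Of 8 core genes of the Hippo kinase cascade upstream of YAP, 1 was called (against 7.06% of all genes), and their median log2 fold change was -0.01 (-0.09 to 0.02 with 1 ovary left out at a time, positive without Bnc1+/+ replicate 7 or Bnc1tr/tr replicate 3). Nf2, encoding merlin, an activator of the kinase cascade, measured 155.5, 157 and 152 CPM in Bnc1+/+ and 127, 119 and 120 CPM in Bnc1tr/tr ovaries. The genotypes did not overlap (log2 fold change -0.34, SE 0.073, edgeR adjusted p = 0.034), but Nf2 passed in only 1 of the 6 fits with an ovary left out, that without Bnc1tr/tr replicate 1. The kinase gene Lats1 had a log2 fold change of -0.17 (edgeR adjusted p = 0.350) and its paralogue Lats2, itself a YAP target, 0.11 (edgeR adjusted p = 0.741).

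Among 22 genes for partners of YAP, TAZ or TEAD, 21 were tested, and 2 were called higher and 1 lower, against 7.06% of all genes called in either direction. The median log2 fold change was 0.07, and -0.03 without Bnc1tr/tr replicate 1. Runx2, a transcription factor that binds YAP and TAZ through its PPxY motif, fell from 117, 126 and 159 CPM in Bnc1+/+ to 14.1, 36.3 and 29.1 CPM in Bnc1tr/tr ovaries (log2 fold change -2.34, SE 0.32, edgeR adjusted p = 0.0067). Trp73, a p53 family factor that YAP can co-activate, rose from 2.34, 0.967 and 1.03 CPM to 4.98, 3.89 and 7.16 CPM (edgeR adjusted p = 0.034). Wwc1, encoding the Hippo activator KIBRA, rose from 12.4 ± 0.0743 to 18.4 ± 2.34 CPM (SD, n = 3 each; edgeR adjusted p = 0.033). Runx2 passed with each single ovary left out, Trp73 in 2 and Wwc1 in 1 of these 6 fits. Corpus luteum and endothelial marker sums were also lower in the Bnc1tr/tr ovaries, and their part in the Runx2 value was not tested. In each genotype the ovary highest in Trp73 had the highest oviduct marker sum (Bnc1+/+ replicate 1, 148 CPM, and Bnc1tr/tr replicate 3, 541 CPM). Without these 2 ovaries the Trp73 log2 fold change was 2.13 (edgeR adjusted p = 0.035). The part of oviduct tissue in the Trp73 value was not tested.

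Ctgf and Cyr61 belong to the CCN family of matricellular proteins, and 1 of its 5 tested genes was called, against 7.06% of all genes. That gene was Wisp2, encoding the family member without the C-terminal domain, at 38.0, 73.9 and 181 CPM in Bnc1+/+ and 23.0, 13.8 and 12.4 CPM in Bnc1tr/tr ovaries. All Bnc1tr/tr ovaries were lower, with a wide spread among Bnc1+/+ ovaries (log2 fold change -2.57, SE 0.54, edgeR adjusted p = 0.034). The call was lost with limma-voom and with edgeR's robust fit, and held in 1 of 6 fits with an ovary left out, that without Bnc1+/+ replicate 1. The part of the lower corpus luteum and endothelial marker sums in the Wisp2 value was not tested. Wisp1 had a log2 fold change of -0.57 (edgeR adjusted p = 0.361).

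The paper proposes that loss of Bnc1 activates YAP and leads to ferroptosis, an iron-dependent cell death, of oocytes. Its evidence on YAP came from protein: active YAP was more nuclear in Bnc1tr/tr oocytes, and less so after injection of Nf2 mRNA. In the paper the YAP inhibitor verteporfin also raised primordial follicle numbers in Bnc1tr/tr mice. Whole-ovary transcripts do not measure the location of YAP in oocytes. The paper reported Tfrc and Acsl4 as higher in isolated Bnc1tr/tr oocytes, in transcript and protein, and TFRC staining as higher in ovaries. Here 4 genes through which YAP or TAZ is known to favour ferroptosis were examined in whole-ovary RNA, which does not measure oocytes alone. Acsl4, an enzyme involved in making phospholipids with polyunsaturated fatty acids, measured 173, 188 and 188 CPM in Bnc1+/+ and 39.1, 86.1 and 70.2 CPM in Bnc1tr/tr ovaries (log2 fold change -1.49, SE 0.25, edgeR adjusted p = 0.015). Tfrc, the transferrin receptor that takes up iron, measured 35.4, 48.5 and 42.8 CPM against 19.5, 22.1 and 26.1 CPM (log2 fold change -0.90, SE 0.15, edgeR adjusted p = 0.015). For both genes every Bnc1tr/tr ovary was lower than every Bnc1+/+ ovary. Thus 2 of 4 genes were called lower, against 4.19% of all genes, and 2 of 4 did not overlap, against 30.8%. Neither gene passed without Bnc1+/+ replicate 4 or without Bnc1+/+ replicate 7. The direction is opposite to the paper's oocyte values, but those come from isolated cells of 4-week-old mice injected with gonadotropin. The ovaries here came from 8-week-old mice. The direction is also opposite to the paper's TFRC staining of ovaries, which measures protein. Skp2 (log2 fold change 0.25, edgeR adjusted p = 0.338) and Nox4 (-0.11, edgeR adjusted p = 0.805) did not pass. The same corpus luteum and endothelial marker sums were lower beside these 2 calls, which was not tested further.

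Ctgf and Cyr61 also respond quickly to stimulation, so 19 immediate-early genes were set beside them. Of these 1 was called, against 7.06% of all genes. Dusp1, a phosphatase that switches off MAP kinases, fell from 98.9, 145 and 133 CPM to 31.4, 28.8 and 35.6 CPM (log2 fold change -1.98, SE 0.16, edgeR adjusted p = 0.0013), and it passed with each single ovary left out. Fosb (-1.12, edgeR adjusted p = 0.338) and Nr4a1 (-1.004, edgeR adjusted p = 0.085) had the next largest differences. The median over the 19 genes was -0.39, with 13 of 19 negative, but its sign rested on 1 ovary: it was 0.09 without Bnc1+/+ replicate 7, and -0.18 without Bnc1tr/tr replicate 3. Whether the lower corpus luteum and endothelial marker sums had a part in the Dusp1 value was not tested.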

How the data were processed

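Total RNA of whole ovaries from 3 Bnc1+/+ and 3 Bnc1tr/tr mice was sequenced by the authors as single-end Ion Proton libraries. The authors deposited raw counts, whole numbers of reads per gene symbol and ovary without normalization; the aligner, counter, annotation and strand setting are not given in the sources used here. The submitters' processing notes name the builds mm10 and Sscrofa10.2 with no role. Totals were 25247770 to 34406296 counts per ovary. Ovaries of a genotype differed by a chi-square per degree of freedom of 17.0 to 64.4, so none was a duplicate. The paper says that it compared littermates, but nothing states which of these ovaries were littermates, so the fit was unpaired. The p-values set the genotype difference against the spread between these ovaries.

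Genes were filtered with filterByExpr (minimum count 10), scaled with TMM and tested with edgeR 4.0.16 (quasi-likelihood, two-sided, R 4.3.3), with Benjamini-Hochberg adjustment over all genes tested and a threshold of 0.05. Fold changes are Bnc1tr/tr over Bnc1+/+. Ratios and shares were compared with exact permutation tests (scipy 1.17.1). Correlations used log2(CPM + 0.5). The code was tested on simulated data. Alternatives were DESeq2 1.42.0, its size factors, library size alone, limma-voom (limma 3.58.1), edgeR's robust fit, no filter, at least 10 counts in every ovary, another gene length and leaving out each ovary; leaving out the 2 ovaries with the highest oviduct marker sums was added after seeing the data. The genes and lists were chosen with earlier results of these data known. Named beyond the 10 genes were the genes called in each pathway list and, where fewer than 3 were called, those with the largest differences at a mean of at least 1 CPM, up to 3 a list, and the 3 genes most like Yap1 and Cyr61. Foxf2 and Nox4 fell outside this rule and were named, after their values were seen, to account for their lists. Lists for theca, stroma, leukocytes and surface epithelium had 0 genes called, smooth muscle had 1 called lower, and the other marker lists are described with the results. Positions and exon lengths came from GRCm38 with GENCODE M21, and promoter windows from RefSeq (GRCm38.p6).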

Additional observations from a re-analysis of the deposited data

How the results depend on the processing

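No paired analysis was possible because the genotypes share only replicate number 1 and nothing states which ovaries were littermates. All genes called numbered 1372, 2420 with DESeq2, 304 without the 2 ovaries of highest oviduct marker sums and 320 to 1282 with 1 ovary left out. Library size alone moved the median of all genes from 0.018 to 0.118 and the calls to 1112 higher of 1728, against 559 of 1372. Of the 9 YAP module genes 0 to 1 were called with 1 ovary left out. The other YAP/TAZ targets (4 called) gave 1 to 5, and 0 without the 2 ovaries. The partners (3 called) gave 5 with no filter, 1 to 4 with 1 ovary left out and 1 without the 2 ovaries. The Hippo core (1 called) gave 0 with library size alone, 0 to 1 with 1 ovary left out and 0 without the 2 ovaries. The CCN family (1 called) gave 0 with limma-voom and with the robust fit, and 0 to 1 with 1 ovary left out. The ferroptosis genes (2 called) gave 0 to 2 with 1 ovary left out and 1 without the 2 ovaries. The immediate-early genes (1 called) gave 2 with no filter and with DESeq2. The cause of these shifts was not tested, beyond the smaller number of ovaries in the fits that left some out.

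Direction changed for small differences. Wwtr1 had a log2 fold change of 0.094 with library size alone, and -0.091 to 0.068 with 1 ovary left out. In the same fits Tead1 ranged from -0.031 to 0.28, Tead2 from -0.14 to 0.16, Tead3 from -0.037 to 0.067, Ctgf from -0.48 to 0.52 and Cyr61 from -0.064 to 0.077. Without the 2 ovaries Tead2 was at -0.038 and Cyr61 at -0.069. The difference in TEAD share ranged from -1.67 to 1.26 percentage points for Tead2 and from -1.04 to 0.93 for Tead3. Yap1 stayed positive and Tead4 and Amotl2 stayed negative under all 14 alternatives. With 3 ovaries per genotype the intervals of Ctgf, Tead4 and Amotl2 include differences of over 1.5-fold.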
